A study of Homo sapiens with 24 samples.

Results

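Processed pseudogenes are copies of messenger RNAs that were reverse transcribed and inserted into the genome. Of the 10186 genes of this type (GENCODE 29, gene type processed_pseudogene) in the count table, 2148 had 10 or more reads in at least 3 of the 24 libraries, and these are described here. The table holds 58381 gene IDs in all. RNA came from T24, 5637, TCC-SUP and CLS-439 cells, which are established human lines from bladder cancer, either untreated or exposed for 1 h to 75 µM mitomycin C (MMC), a drug that crosslinks DNA, with RNA taken 15 h after treatment. Each of the 8 groups has 3 libraries, numbered 1, 3 and 4. The labels name no engineered allele, and a difference between lines is one between 4 cell lines, not between patients or tumours. In bulk RNA, fewer cells with a transcript and less of it per cell cannot be told apart.

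A processed pseudogene usually lacks the introns and the promoter of its parent gene, has no open reading frame that is kept intact over time, and collects base changes after insertion. Genes with high germline expression, such as those for ribosomal proteins, glycolytic enzymes and translation factors, have left the most copies in the human genome. Because a recent copy can differ from its parent at few bases, a short read can fit both places, and a count given to a copy need not come from RNA of that copy.

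Counted reads per library ranged from 13791428 to 28821665, and were 13791428 to 20863429 in the 6 CLS-439 libraries. Epithelial markers (KRT8, KRT18, KRT7, KRT19, EPCAM and CDH1) summed to between 1087 and 6896 CPM over the libraries. Of these 6, 5 were at 1 CPM or more in T24 and all 6 in the other lines. CDH1 averaged 0.0411 CPM in T24 and 1.77 in CLS-439, and KRT19 1.40 in CLS-439. Of 4 basal urothelial markers, KRT5 and TP63 averaged 837 and 82.2 CPM in 5637 and at most 0.541 and 1.42 elsewhere. CD44 averaged 378 to 1213 CPM over the lines and KRT14 0.0750 to 45.5. The 8 luminal urothelial markers summed to between 50.6 and 189 CPM, of which 3 or 4 were at 1 CPM or more in each line. Of these 8, GATA3, PPARG and FOXA1, transcription factors of luminal cells, averaged between 1.84 and 92.1 CPM, UPK1B at most 5.16, and UPK1A, UPK2, UPK3A and KRT20 at most 0.329. CPM are read counts scaled to the TMM-adjusted size of each library. The 8 mesenchymal and fibroblast markers summed to 4344 to 11859 CPM in TCC-SUP, where 8 of 8 were at 1 CPM or more. The sums were 159 to 288 CPM in T24, 643 to 1169 CPM in 5637 and 2569 to 3987 CPM in CLS-439. COL1A1, COL1A2, COL3A1, DCN, LUM and PDGFRB were highest in TCC-SUP, and VIM and CDH2 were not. VIM averaged 9.48 CPM in TCC-SUP, against 71.3 in T24, 629 in 5637 and 1317 in CLS-439. CDH2 averaged 254 CPM in TCC-SUP, beside 161, 316 and 533 CPM. In CLS-439, COL1A2, COL3A1, DCN and LUM averaged at most 0.219 CPM. The CLS-439 libraries stood apart in a second measure: genes encoded in mitochondrial DNA held 0.0238 to 0.0283% of their reads, against 3.21 to 7.40% in the other 18. The part of these features in the results below was not tested. Whether CLS-439 reads match the human reference at these copies was not tested either, since the files hold counts and no reads.

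RPS2, a protein of the small ribosomal subunit, is the parent with the most member reads in T24, 5637 and TCC-SUP. In CLS-439 its share depended on how copies were assigned to parents, as given below. Its copy RPS2P5 led in those lines, while the RPS2 copies AC022210.1 and AL355802.1 led in CLS-439. Over the whole alignment to the coding sequence, RPS2P5 was 98.7% identical to RPS2, with 11 mismatches in 879 positions. AC022210.1 was 96.9% identical with 24 mismatches, and AL355802.1 was 96.1% identical with 34.

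The sequences below show how close copies of 1 parent can be, and which of them took up reads in which line. All are 90-base windows on GRCh38 from the GENCODE 29 transcripts, given 5′ to 3′ on the gene's own strand. Each window lies in the coding sequence of the parent's longest coding transcript, starts at a codon and has no gap. Of such windows, it is the one with the most differences from the parent, summed over the copies shown. Capitals mark bases that differ from the parent. EEF1A1 encodes the elongation factor that brings aminoacyl-tRNA to the ribosome. Its copy EEF1A1P5 (chr9:133019513-133019602, plus strand) was among the leading members of T24, 5637 and TCC-SUP, and EEF1A1P9 (chr4:105484719-105484808, plus strand) was among those of CLS-439. The window covers bases 28 to 117 of the coding sequence.
EEF1A1: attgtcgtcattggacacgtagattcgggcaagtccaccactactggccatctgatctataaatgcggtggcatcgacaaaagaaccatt
EEF1A1P5: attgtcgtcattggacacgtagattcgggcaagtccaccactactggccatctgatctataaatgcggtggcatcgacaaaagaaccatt
EEF1A1P9: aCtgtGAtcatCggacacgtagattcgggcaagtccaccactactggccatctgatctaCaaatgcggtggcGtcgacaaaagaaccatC

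EEF1A1P5 has no difference in this window and 4 mismatches in 1386 aligned positions, while EEF1A1P9 has 7 differences in the window and 38 mismatches in 1380 positions.

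MT-CO1 is a cytochrome c oxidase subunit encoded in mitochondrial DNA. MTCO1P22 (chr5:100054778-100054867, minus strand) is a nuclear copy of it that is more diverged, with 143 mismatches in 1368 aligned positions, gaps included. The window covers bases 400 to 489 of MT-CO1.
MT-CO1: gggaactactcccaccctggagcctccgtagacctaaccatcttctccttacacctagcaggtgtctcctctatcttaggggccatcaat
MTCO1P22: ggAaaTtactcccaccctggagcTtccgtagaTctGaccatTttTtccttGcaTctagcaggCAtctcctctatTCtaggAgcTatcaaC

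RPL10 is a protein of the large ribosomal subunit, and its copies RPL10P6 (chr2:214847317-214847406, plus strand) and RPL10P9 (chr5:168616868-168616957, plus strand) set 5637 apart from T24 and TCC-SUP. The window covers bases 517 to 606 of the coding sequence.
RPL10: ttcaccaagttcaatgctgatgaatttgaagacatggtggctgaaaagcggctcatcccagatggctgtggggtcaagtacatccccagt
RPL10P6: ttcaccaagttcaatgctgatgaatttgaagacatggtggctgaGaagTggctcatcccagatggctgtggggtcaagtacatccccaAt
RPL10P9: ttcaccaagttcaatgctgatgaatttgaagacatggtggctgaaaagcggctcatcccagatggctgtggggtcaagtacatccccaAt

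Copies of NPM1, a nucleolar chaperone, and of CDC20, an activator of the anaphase-promoting complex, fell after MMC in 3 lines. NPM1P27 (chr5:93683577-93683666, minus strand) is shown at bases 52 to 141 of the NPM1 coding sequence, and CDC20P1 (chr9:87012144-87012233, plus strand) at bases 490 to 579 of that of CDC20.
NPM1: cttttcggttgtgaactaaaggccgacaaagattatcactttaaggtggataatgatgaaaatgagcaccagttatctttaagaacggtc
NPM1P27: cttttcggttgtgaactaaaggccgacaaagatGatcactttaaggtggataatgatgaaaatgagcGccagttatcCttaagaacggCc
CDC20: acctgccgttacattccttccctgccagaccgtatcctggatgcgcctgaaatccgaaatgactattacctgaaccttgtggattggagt
CDC20P1: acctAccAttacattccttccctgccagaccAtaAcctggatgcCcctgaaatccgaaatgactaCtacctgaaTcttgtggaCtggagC

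The first comparison concerns the share of all counted reads that fell in the 2148 pseudogenes. The share was 0.211% ± 0.0210 in T24 (SD, n = 6), 0.157% ± 0.0132 in 5637 and 0.174% ± 0.0189 in TCC-SUP, against 2.89% ± 0.120 in CLS-439. The 6 CLS-439 libraries lay between 2.72 and 3.02% and the other 18 between 0.135 and 0.224%, so the groups did not overlap. The mean of CLS-439 was 16 times that of the other 18 libraries, and 13.7, 18.4 and 16.7 times that of T24, 5637 and TCC-SUP. The members were chosen partly for this contrast, so the difference is a description and carries no test. Of the members, 1441 met the read threshold in CLS-439 libraries and not in the other 18, 129 in the other 18 and not in CLS-439, 569 in both sets, and 9 only over all 24. In 57 members the third-highest library held exactly 10 reads, and 72 further processed pseudogenes missed the threshold with exactly 9.

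**Figure D1:**
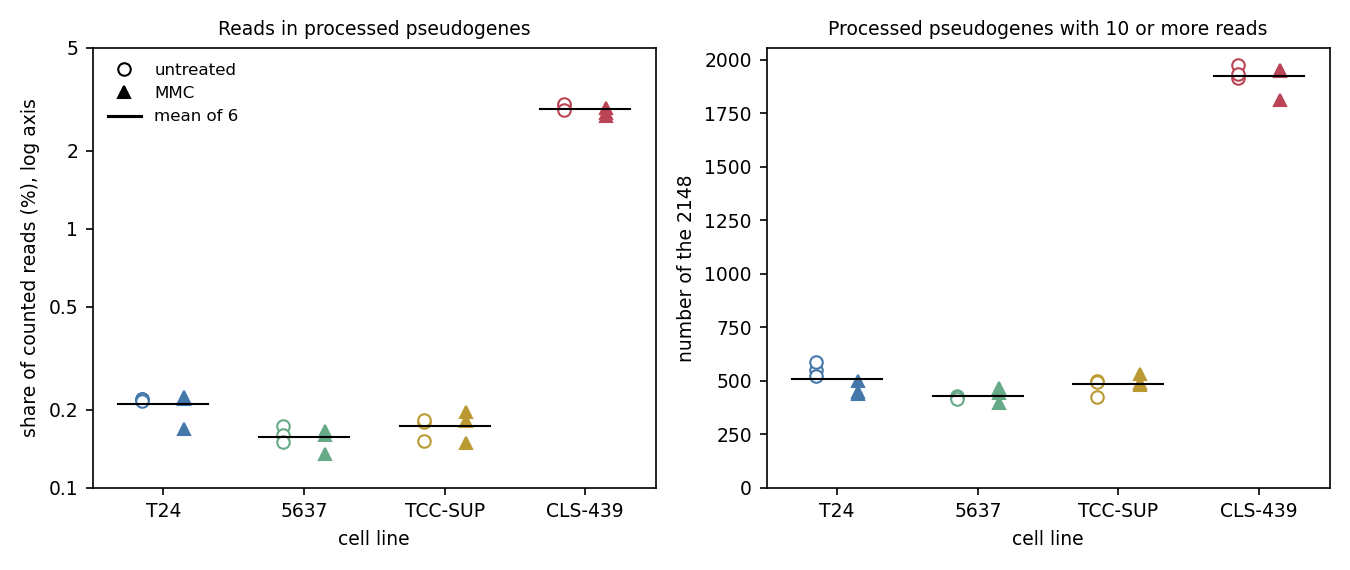
Left, the share of counted reads in the 2148 processed pseudogenes (percent, log axis) in each library by cell line. Right, the number of these pseudogenes with 10 or more reads. Open circles are untreated and filled triangles MMC-treated libraries, and the line is the mean of 6. All CLS-439 libraries lie above the other 18 in both panels, at 2.72 to 3.02% and at 1813 to 1976 members. Members were chosen by reads in these libraries, so both panels are a description.

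Member reads were spread over more copies in CLS-439 than in the other lines, which follows in part from the choice of members. Since 1441 members met the read threshold in CLS-439 libraries and not in the other 18, the counts here are a description. Members with 10 or more reads numbered 1813 to 1976 per CLS-439 library and 398 to 588 per library of the other lines. The members averaging at least 1 CPM numbered 289, 265 and 281 in T24, 5637 and TCC-SUP, against 1564 in CLS-439. A single member, RPS2P5, exceeded 100 CPM in each of T24, 5637 and TCC-SUP, against 47 members in CLS-439. It took 31, 41 and 43 members to hold 50% of the member reads in T24, 5637 and TCC-SUP, and 86 in CLS-439. No read was counted for 170 members in the 18 libraries of the other lines, nor for 33 members in CLS-439.

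Of the members that passed the filter on low counts for the tests below (2132 of 2148), 1839 had all 6 CLS-439 libraries above all 18 others, or 86.3%, and 38 had them all below. Over all 20820 genes that passed, 22.6% had all CLS-439 libraries above and 15.5% below. The median log2 fold change of untreated CLS-439 over the mean of the other untreated lines was 5.62 for members and 0.03 for all genes, and for treated libraries it was 5.60 and 0.02. Since most members passed the threshold through CLS-439, these values follow from the choice and nothing is read from them.

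Single members show what the sum is made of. RPS2P5 (chromosome 12, 118246084 to 118246962, antisense within TAOK3) was the highest member in the other lines, at 234 to 375 CPM over the 6 T24 libraries with a median of 286, 147 to 224 in 5637 and 180 to 260 in TCC-SUP. In CLS-439 it ranged from 66 to 140 CPM, below every library of the other lines. The related AC022210.1 (chromosome 2, 84915868 to 84916660, in no other gene) had 0.910 to 1.79 CPM in T24, 0.253 to 1.30 in 5637 and 0.928 to 1.31 in TCC-SUP, and 618 to 1075 CPM in CLS-439. AL355802.1 (chromosome 6, 43538822 to 43539703, within XPO5 on the same strand) showed the same order, with at most 0.776 CPM in any library of the other lines and 401 to 519 CPM in CLS-439.

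Both EEF1A1 copies shown were higher in CLS-439, and the order of the pair differed between lines. EEF1A1P5 (chromosome 9, 133019486 to 133020874) averaged 53.7, 29.8 and 38.3 CPM in T24, 5637 and TCC-SUP, against 192 CPM in CLS-439. EEF1A1P9 (chromosome 4, 105484698 to 105486080) averaged 0.835, 0.411 and 0.557 CPM in the first 3 and 318 in CLS-439. So the copy that matches EEF1A1 at all but 4 positions was the higher of these 2 in T24, 5637 and TCC-SUP, and the copy with 38 mismatches was the higher in CLS-439, in every library.

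Other members with the most CLS-439 reads were ANXA2P2, a copy of the membrane-binding protein annexin A2 (chromosome 9, 33624274 to 33625293), with 559 to 798 CPM there against 11.1 to 106 in the other lines. GAPDHP1, a copy of the glycolytic enzyme GAPDH on chromosome X, had 313 to 382 CPM against 5.11 to 31.5. RPS11P5, a copy of a small-subunit ribosomal protein gene, had 306 to 400 CPM against 0.505 to 1.96. PPIAP22 and RPLP0P6, copies of cyclophilin A and of a ribosomal stalk protein that match their parents at 99.6% and 98.8%, differed less between lines. They had 133 to 206 and 85 to 92 CPM in CLS-439, and 20.0 to 52.7 and 21.0 to 41.1 CPM in the other lines.

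**Figure D2:**
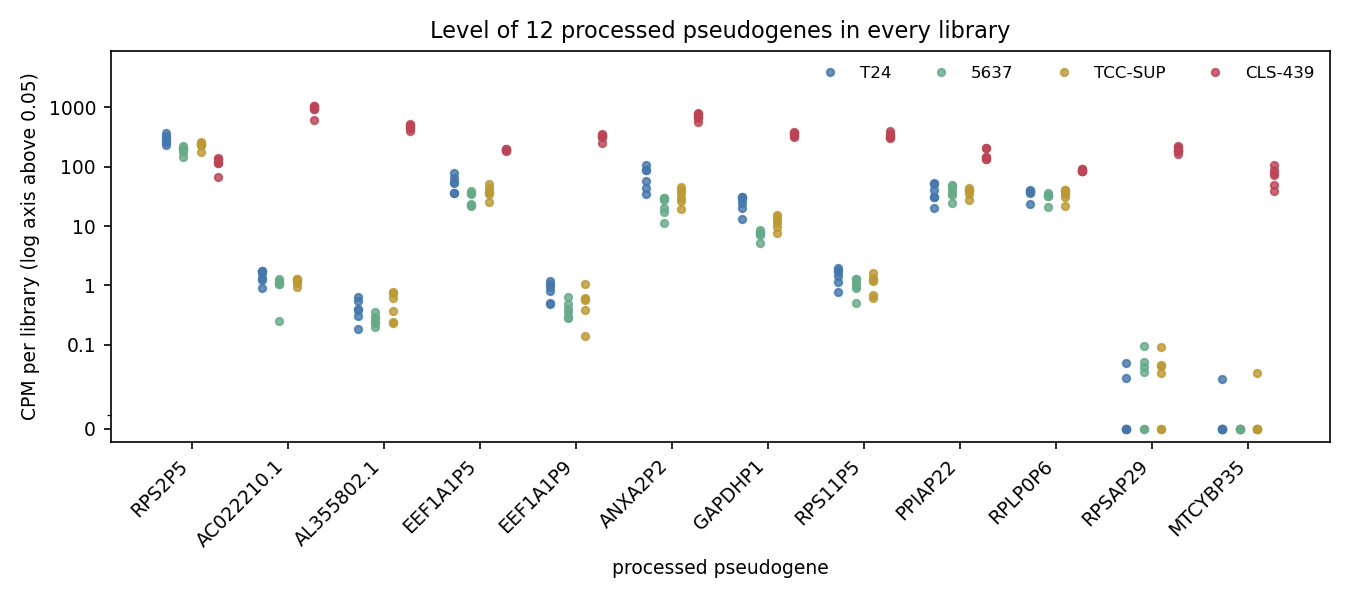
Level (CPM, log axis above 0.05) of 12 processed pseudogenes in each of the 24 libraries, 1 point per library, coloured by line. RPS2P5 is the only one of the 12 whose CLS-439 points lie below the others, and RPSAP29 and MTCYBP35 lie at or under 0.0966 CPM in all 18 libraries of the other lines.

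Among members with 10 CPM or more in the higher group, the largest ratios of untreated CLS-439 over the other untreated lines rested on almost no reads in the denominator. MTCYBP35, a nuclear copy of mitochondrial cytochrome b on chromosome 5 (94569540 to 94570676), had 4733 reads in the 3 untreated CLS-439 libraries and 1 read in the 9 others. The ratio of mean CPM was 18773, with a 95% counting interval of 2753 to 606345. AC092324.1, a copy of the ribosomal protein gene RPL35A, had 3999 reads against 1, and RPSAP29, a copy of the laminin receptor and ribosomal protein RPSA, had 12297 against 8. GJA1P1, a copy of connexin 43, and AL451074.4, a copy of RPS13, had no read in the 9 libraries and were at least 2011-fold and at least 1923-fold higher in CLS-439, taking 3 reads over the 9 libraries as the floor. Counting intervals and floors cover counting error only.

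A few members ran the other way. AC018638.4, on chromosome 7 (from 128651185) and with no alignment to a protein-coding transcript, had 2242 reads in the 9 untreated libraries of the other lines, at 7.92 to 16.4 CPM, and none in CLS-439, where it was at least 230-fold lower. RPS2P46 was 17.4-fold lower in CLS-439, at 0.630 to 1.08 CPM against 9.70 to 23.4 CPM. RPL10P9, RPSAP58 and AC107956.1, copies of RPL10, RPSA and RPS2, were 2.83-fold, 2.59-fold and 2.70-fold lower in untreated CLS-439 than the mean of the other lines. For RPL10P9 that mean rests on 5637, with 62.3 CPM there, and the 8.23 CPM of CLS-439 was above the 5.17 of T24 and the 2.42 of TCC-SUP. RPSAP58 and AC107956.1 had 11.7 and 10.7 CPM in CLS-439, below the lowest mean of the others (22.2 and 19.7 CPM). Identity to the parent was 98.6% for RPS2P46, 98.9% for RPL10P9, 99.5% for RPSAP58 and 95.3% for AC107956.1.

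Copies of mitochondrial genes differed between lines, and not all in the same direction. MTCO1P22 averaged 275 CPM in CLS-439 (195 to 327) and at most 0.107 CPM in another line. Its neighbours in the same stretch of chromosome 5, MTCO2P22 (100052859 to 100053539) and MTND4P35 (100048988 to 100050362), averaged 12.7 and 11.3 CPM in CLS-439 and at most 0.0169 and 0.0537 CPM elsewhere. The parent genes had the opposite order: MT-CO1 had 10295 ± 1359 CPM in T24 (SD, n = 6), 10985 ± 1021 in 5637 and 10808 ± 1385 in TCC-SUP, against 6.35 ± 1.62 in CLS-439. MT-CYB had 2091, 2662 and 3004 CPM in the first 3 and 0.236 in CLS-439. MTND4P12 and MTCO1P40, which match mitochondrial genes at 95.8% and 96.0%, ran against MTCO1P22. MTCO1P40 averaged 0.744, 0.946 and 0.912 CPM in T24, 5637 and TCC-SUP and had no read in CLS-439, and MTND4P12 averaged 0.667, 2.5 and 0.677 CPM and 0.00719 in CLS-439. MTCO1P22 and MTCYBP35 match their parents at 85.7% and 86.0%. Identity did not sort all copies by line. MTND4LP30, which matches at 94.9% and overlaps MTND4P12 on chromosome 5, averaged 1.24 CPM in CLS-439 and at most 0.0973 elsewhere. MTCYBP18 (92.4%) averaged 0.722 CPM in CLS-439 and 0.445 in 5637. MTND4P24 (93.7%) averaged 0.586 CPM in 5637 and had no read in CLS-439.

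Identity to the nearest protein-coding transcript could be computed for 2128 members. Since 1441 members met the read threshold in CLS-439 libraries alone, its values over all members follow in part from the choice and are a description. Weighted by reads, it averaged 97.6% ± 0.144 in T24 (SD, n = 6), 97.3% ± 0.366 in 5637 and 97.1% ± 0.220 in TCC-SUP, against 95.8% ± 0.0542 in CLS-439, and no CLS-439 library (at most 95.8%) reached the lowest of the others (96.7%). In T24, 27.4% of member reads lay in the 99 copies at 99% identity or more and 7.41% in the 959 copies between 90 and 95%. In CLS-439 these shares were 8.11 and 26.7%. Summed CPM in CLS-439 was 4.44 times the mean of the other lines below 85% identity, 38.2 times from 85 to 90%, 45.9 times from 90 to 95%, 27.8 times from 95 to 97.5%, 7.24 times from 97.5 to 99% and 4.0 times at 99% or more.

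**Figure D3:**
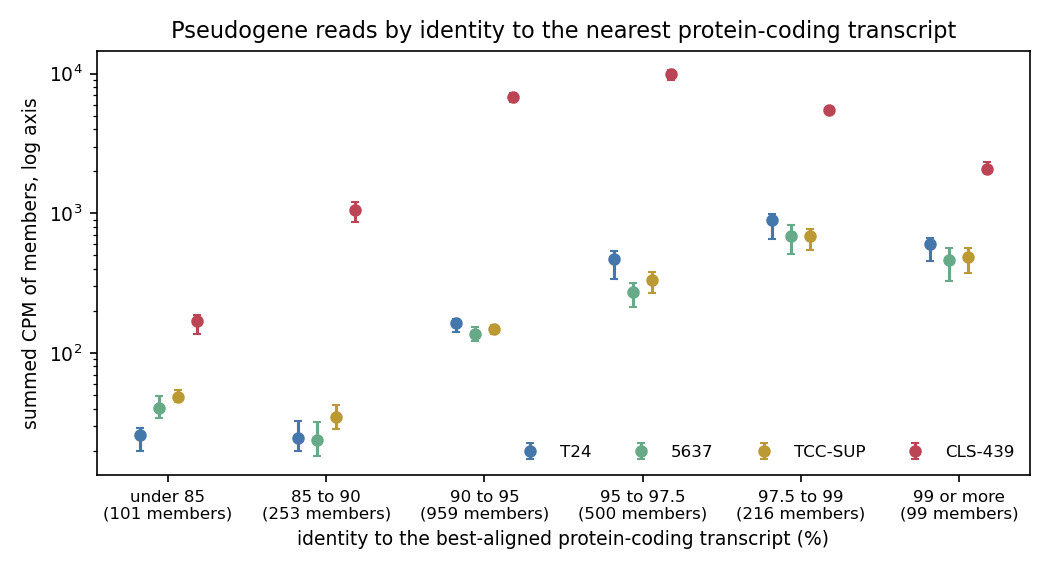
Summed CPM (log axis) of members grouped by identity to the best-aligned protein-coding transcript, with the number of members in each group. Points are means of the 6 libraries of a line and bars run from the lowest to the highest library. CLS-439 lies highest in every group, with its largest ratio to the other lines, 45.9, between 90 and 95%.

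A second measure of likeness, with the same limit, is the share of a pseudogene's 50-base words that also occur in a transcript of another gene, which a read of that length could not tell apart. Weighted by reads it was 57.5, 56.3 and 56.1% for T24, 5637 and TCC-SUP, against 33.2% for CLS-439. For the 70 members with 80% or more shared words, CLS-439 had 2.62 times the summed CPM of the other lines. It had 43.8 times for the 836 members with some but under 10%, and 16.8 times for the 266 members with none. The treatment of reads that fit several places is not given in the sources used here, and the part it has in these counts was not tested.

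Both measures were then taken over the 698 members that met the read threshold in the 18 libraries of the other lines, a set chosen without CLS-439 after the values above were seen. Their summed CPM in CLS-439 was 9.33 times the mean of the other lines. Read-weighted identity was 97.7, 97.4 and 97.3% for T24, 5637 and TCC-SUP. It was 97.0% for CLS-439, whose libraries (96.95 to 96.99%) now overlapped those of 5637 and TCC-SUP (from 96.8 and 96.9%). The ratio of CLS-439 to the others was 1.00 for the 43 copies below 85% identity, 1.78 for 35 copies from 85 to 90%, 21.3 for 152 from 90 to 95%, 21.6 for 216 from 95 to 97.5%, 6.84 for 152 from 97.5 to 99% and 3.94 for 87 at 99% or more. So in this set copies from 90 to 97.5% had the highest ratios, and those below 90% had far lower ones than over all members. Choosing by reads in the other lines leaves out members read mainly in CLS-439. The lower ratios thus follow in part from this choice, and nothing is read from the drop. The share of shared words still set CLS-439 apart, at 42.5% (42.3 to 42.7%) against 54.7 to 59.9% in the other libraries. The ratio was 1.18 for the 64 members with no shared word and 2.59 for the 56 with 80% or more.

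Members were closer to their best-aligned protein-coding transcript than the rest of the class was. Members were chosen by reads, and 1441 met the threshold in CLS-439 libraries alone. The values here thus describe in part which copies took up CLS-439 reads. Median identity was 93.8% in members and 85.4% in the 7329 aligned processed pseudogenes below the threshold, and median length was 725 and 490 bases. A single exon was annotated in 93.3% of members and 85.7% of the rest. Exons of another gene overlapped 1.86% of members on the same strand and 5.45% on the opposite strand, beside 1.78 and 4.12% of the rest. Another gene's body on the same strand held 21.4% of members and 16.8% of the rest. Members made up between 13% (chromosome 21) and 28.7% (chromosome 17) of the processed pseudogenes of the chromosomes given here.

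Each member was then set beside its parent gene. Taking the final P and number off the symbol gave a parent for 1311 members, or 643 different parents, of which 233 had 2 or more members. The best alignment to a protein-coding transcript gave a parent for 2128 members, and the parents matched in 1285 of the 1310 members that had both. Copies known only by a clone name, such as AC022210.1, have a parent by alignment only.

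Among copies grouped by the family of an assigned parent, ribosomal protein copies held the largest share of member reads in every line under both assignments. By symbol, 837 members have no parent and held 22.7, 24.2, 24.8 and 35.8% of member reads for T24, 5637, TCC-SUP and CLS-439. The ribosomal protein copies held 36.1, 35.3 and 32.9% of member reads for T24, 5637 and TCC-SUP, against 21.7% for CLS-439, from 296 members of 67 parents. By alignment, with 536 members of 82 parents, the shares were 47.5, 45.7, 44.2 and 44.1%, so the lower share in CLS-439 did not hold by alignment. Copies of nuclear-encoded respiratory chain and ATP synthase genes had 46.5 times the CPM of the other lines in CLS-439 by symbol and 49.8 times by alignment, ferritin copies 27.0 times under both, and chaperone copies 25.5 and 28.6 times. Copies of cyclin, proteasome and ubiquitin genes had 4.68 and 6.22 times, and copies of chromatin and nuclear RNA-binding genes 5.26 and 5.27 times.

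RPS2 had the highest read share of any parent in T24, 5637 and TCC-SUP. Its 13 copies by symbol held 14.6, 12.7 and 14.5% of member reads there and 1.48% in CLS-439, and its 31 copies by alignment held 16.8, 14, 16.6 and 8.63%. The 8.63% in CLS-439 is above the 3.11% of ANXA2 copies, which led there by symbol, so the low rank of RPS2 in CLS-439 did not hold by alignment. The parent RPS2 itself had 2111 ± 407 CPM in T24 (SD, n = 6), 1288 ± 177 in 5637 and 1591 ± 188 in TCC-SUP, against 72.6 ± 10.1 in CLS-439. The 13 copies together thus amounted to 15.6% ± 0.827 of the parent in T24, 16.4% ± 0.617 in 5637 and 16.2% ± 0.384 in TCC-SUP, against 519% ± 57.9 in CLS-439. No library of CLS-439 (445 to 598%) came near the others (14 to 17.5%). With the 31 copies by alignment, which include AC022210.1 and AL355802.1, the values were 17.9, 18.1 and 18.6% in the first 3 lines and 3049% ± 272 in CLS-439 (2697 to 3476%), which is over 5 times the value by symbol.

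Copies of most other parents given here also had a higher ratio in CLS-439, whether or not the parent was lower there, but not all by as much. For EEF1A1, whose own level was 3871 ± 1035 CPM in T24 and 2866 ± 180 in CLS-439, the 14 copies amounted to 1.68, 1.13 and 1.73% of the parent in the first 3 lines and 27.6% ± 0.660 in CLS-439. The 14 GAPDH copies amounted to 0.484, 0.329 and 0.380% and 11.3%, and GAPDH itself had 6546, 3106 and 4268 CPM and 4044 CPM in CLS-439. The 23 RPSA copies amounted to 4.49, 5.56 and 4.84% and 167%, and the 7 PPIA copies to 4.30, 2.99 and 3.97% and 135%. Both parents were lower in CLS-439: RPSA had 901, 793 and 646 CPM and 379 there, and PPIA 968, 1529 and 1078 CPM and 375. For FTH1, the heavy chain of the iron store ferritin, the 10 copies amounted to 0.744, 0.552 and 0.709% and 67.5%. FTH1 itself had 1821, 1162 and 4877 CPM and 581 CPM in CLS-439. Smaller differences were seen for the RPLP0 copy, at 2.26, 1.57 and 2.12% and 4.45%. The 2 RPL23 copies by symbol amounted to 0.226, 0.201 and 0.227% and 0.248%, and the libraries overlapped (0.216 to 0.275% in CLS-439, 0.0942 to 0.442% in T24). By alignment, the 3 RPL23 copies amounted to 0.394, 0.331 and 0.375% and 1.05%.

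Over the 578 parents with 10 CPM or more in every line, the copies' median level relative to the parent was 0.127, 0.10 and 0.135% for T24, 5637 and TCC-SUP, against 4.69% for CLS-439. Per kilobase of exon it was 0.704, 0.514, 0.641 and 22.0%. All 6 CLS-439 ratios lay above all 18 others for 518 parents and below for 8. The parent's own CPM in CLS-439 lay below all other libraries for 122 of the 578 and above for 45. Over all 20820 genes tested, 15.5% lay below and 22.6% above. Copies held more reads than the parent for 13 parents in CLS-439 and for none in the other lines. These ratios share the CLS-439 contrast with the rule and carry no test.

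**Figure D4:**
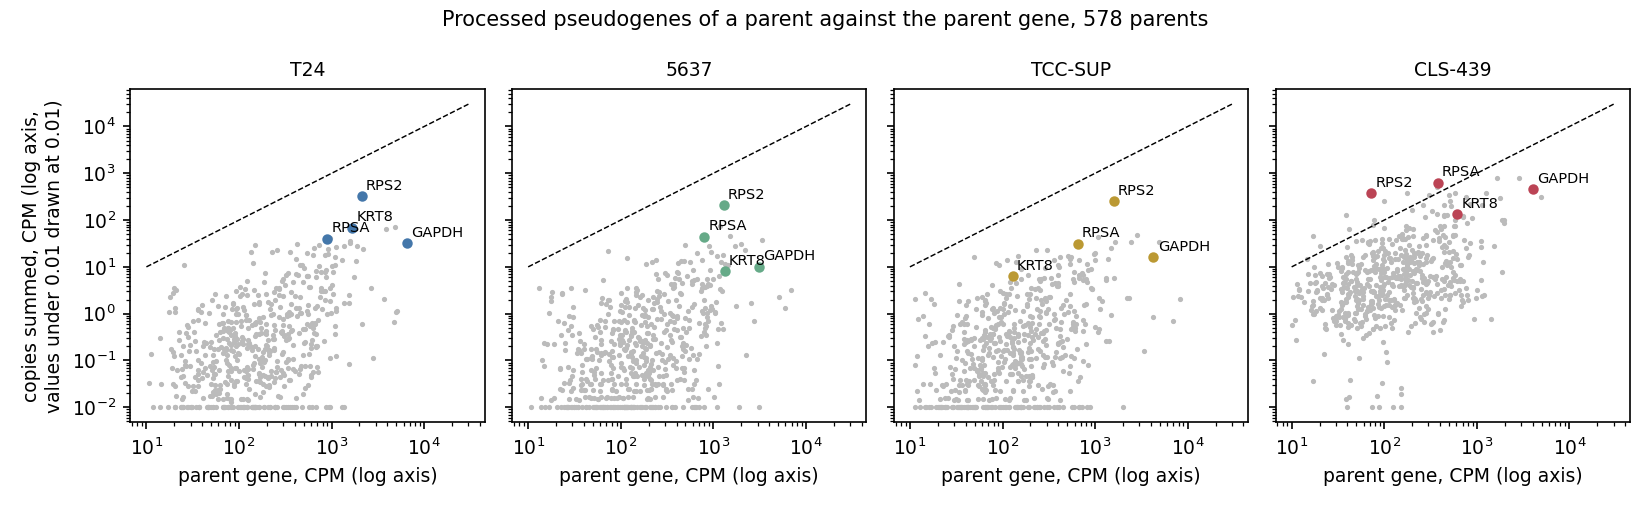
Summed CPM of the processed pseudogenes of a parent against the CPM of the parent gene, means of 6 libraries, both axes logarithmic, for 578 parents at 10 CPM or more in every line. The dashed line marks equal levels, and 4 parents are named. The cloud lies higher in CLS-439, where RPS2 and RPSA are above the dashed line (519 and 167%).

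The comparison of untreated T24, 5637 and TCC-SUP does not use CLS-439 libraries in its contrast. At an adjusted p under 0.05 (edgeR quasi-likelihood test, Benjamini-Hochberg over all genes), 257 members were higher in T24 than in 5637 and 90 lower, of 2132 tested. That is 12.1 and 4.22% of members, beside 22.1 and 24.5% of all genes. Against TCC-SUP, T24 was higher in 223 and lower in 120 members, beside 22.9 and 28.4% of all genes, and 5637 was higher in 129 and lower in 203, beside 27.1 and 29.5%. Median log2 differences over members were 0.19, 0.04 and 0.00 for the 3 pairs, and -0.01 to 0.00 over all genes. A fit without the CLS-439 libraries tested 668 members of 17962 genes, and called a larger share of them. T24 was then higher than 5637 in 180 and lower in 68 members (26.9 and 10.2%), beside 25.1 and 26% of all genes. Against TCC-SUP, T24 was higher in 138 and lower in 87 (20.7 and 13%), beside 24.7 and 31.1%, and 5637 was higher in 81 and lower in 146 (12.1 and 21.9%), beside 28.9 and 33.1%. In either direction 37.1, 33.7 and 34% of these members were called for the 3 pairs, beside 51.1, 55.9 and 62% of all genes.

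RPL10 copies set 5637 apart. RPL10P9 had 60.4, 62.2 and 64.4 CPM in the 3 untreated 5637 libraries, 6.16, 5.44 and 3.92 in T24 and 2.65, 2.62 and 2.0 in TCC-SUP. All 3 libraries of 5637 were above all of the others, with a log2 difference of 4.68 (SE 0.28) to TCC-SUP and of -3.59 (SE 0.26) for T24 minus 5637. RPL10P6 had 14.1, 11.8 and 13.4 CPM in 5637 and at most 1.46 CPM in the others, 5.29 (SE 0.45) above TCC-SUP on the log2 scale. The parent RPL10 averaged 1890 CPM in T24, 1168 in 5637 and 812 in TCC-SUP over 6 libraries, and its 8 copies amounted to 1.46% ± 0.135, 6.75% ± 1.52 and 1.41% ± 0.184 of it.

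Keratin 8 copies were high in T24. KRT8P3 had 48.2, 68.4 and 51.6 CPM in untreated T24, 2.69, 3.24 and 2.57 in 5637 and 3.28, 2.08 and 3.76 in TCC-SUP, a log2 difference of 4.30 (SE 0.29) to 5637 and 4.20 (SE 0.28) to TCC-SUP. KRT8P36 was 4.94 (SE 0.42) above 5637 and KRT8P45 4.25 (SE 0.44) above TCC-SUP. KRT8 itself, a simple-epithelium keratin, averaged 1674 ± 318 CPM in T24 and 1326 ± 178 in 5637 (SD, n = 6). TCC-SUP had 128 ± 32.8 CPM of KRT8, and its copies amounted to 5.06% of the parent, beside 4.16% in T24 and 0.619% in 5637.

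CDC20P1 ranked T24 above 5637 and TCC-SUP, with 29.8, 35.9 and 27.2 CPM, 7.88, 7.49 and 8.14 CPM, and 0.639, 1.12 and 0.380 CPM. T24 exceeded TCC-SUP by 5.44 (SE 0.30) on the log2 scale. MSNP1, a copy of the membrane-cytoskeleton linker moesin, was 4.58 (SE 0.54) higher in T24 than in TCC-SUP. Some members were seen in a single line of the 3. AL627309.6 and AL627309.7, which lie side by side near the end of chromosome 1 (from 135141 and from 137682), had 2.54 to 3.72 and 4.23 to 6.30 CPM in untreated 5637 and at most 0.0485 CPM in untreated T24 and TCC-SUP. AL354685.1, RPL38P4, RHOT1P1 and KRT17P8 were called higher in TCC-SUP than in 5637, with means of 1.73, 1.58, 1.71 and 1.07 CPM there and at most 0.0161 CPM in 5637. AL354685.1 and KRT17P8 had no read in T24, 5637 or CLS-439, and RHOT1P1 averaged at most 0.114 CPM outside TCC-SUP. A member read in 1 line alone met the read threshold through that line, so such calls follow from the choice and nothing is read from them. AC091804.1, a copy of the ezrin gene, averaged 1.44 CPM in 5637, 0.970 in TCC-SUP and 0.0126 in T24.

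No difference in the total share of reads after MMC passed an exact permutation test in any line. Untreated and treated means were 0.219 and 0.204% for T24, 0.161 and 0.153% for 5637, 0.171 and 0.176% for TCC-SUP, and 2.97 and 2.82% for CLS-439. Exact two-sided permutation tests gave p = 0.8, 0.6, 0.9 and 0.2 (n = 3 against 3, adjusted p = 0.9, 0.9, 0.9 and 0.8), where 0.1 is the smallest p this test can give, so it could not have reached 0.05. In 5637 and CLS-439, where replicate numbers were taken as pairs, the treated library had the lower share in 3 of 3 pairs, and an exact test that flips the signs of the pairs gave p = 0.25 for each, the smallest that 3 pairs allow. The pairs went from 0.173 to 0.165%, 0.1599 to 0.1597% and 0.151 to 0.135% in 5637, and from 3.01 to 2.72%, 3.02 to 2.94% and 2.87 to 2.80% in CLS-439. The labels call the libraries biological replicates and do not say what separated them, so all p-values measure the spread between these libraries.

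Single members did change. After MMC, 40 members rose and 101 fell in T24, 55 rose and 61 fell in 5637, 26 rose and 29 fell in TCC-SUP, while 1 rose and 1 fell in CLS-439 (edgeR, adjusted p under 0.05). Called members thus made up 6.61, 5.44, 2.58 and 0.0938% of those tested, beside 28.6, 29.4, 20.7 and 0.62% of all genes. By direction, 15.2% of all genes rose and 13.4% fell for T24, 15.9 and 13.6% for 5637, 9.57 and 11.1% for TCC-SUP, and 0.298 and 0.322% for CLS-439. The median log2 fold change was 0.00 in T24, 5637 and TCC-SUP for members and for all genes alike, and -0.06 for members in CLS-439 beside 0.00. In the mean response over all lines, 67 members rose and 146 fell, beside 19.1 and 17.4% of all genes.

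Within broad bins of mean CPM, members were also called less often than other genes, a difference that was not tested. The bins do not match levels: the lowest reaches down to 0 CPM and the highest has no upper bound. Many members in the lowest bin of T24, 5637 and TCC-SUP were tested only through their CLS-439 reads, and few reads leave little room for a call. Of the 2132 members tested, 1843 had under 1 CPM in T24, and 3.91% of these were called, beside 13.2% of other genes at that level. Among members from 1 to 10 CPM, 17 rose and 43 fell of 247 in T24 (24.3% called, beside 38.7% of other genes). At that level 17 rose and 23 fell of 238 in 5637 (16.8%, beside 42%), and 8 rose and 5 fell of 248 in TCC-SUP (5.24%, beside 25%). From 10 CPM upward, 9 of 42 members were called in T24, 4 of 27 in 5637 and 3 of 33 in TCC-SUP, all of them lower after MMC, beside 39.5, 37.0 and 27.9% of other genes called. In CLS-439, 1 of 441 members at 10 CPM or more was called, beside 0.703% of other genes. Counts moved with single libraries: over fits that each left out 1 library of the line, rises and falls ranged from 24 to 51 and from 51 to 111 for T24, 32 to 74 and 32 to 93 for 5637, and 10 to 37 and 12 to 39 for TCC-SUP. Without the CLS-439 libraries, in a fit that tested 668 members, they were 32 and 57 for T24, 36 and 38 for 5637, and 16 and 13 for TCC-SUP. Called members then made up 13.3, 11.1 and 4.34% of those tested, beside 29.8, 30.6 and 20.2% of all genes. By direction, 15.8% of all genes rose and 14.1% fell for T24, 16.3 and 14.3% for 5637, and 8.72 and 11.5% for TCC-SUP.

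Most members that fell had a parent that fell, and most that rose had no parent that rose. Of the 101 members that fell in T24, 83 had a parent that was itself called lower, as did 50 of 61 in 5637 and 20 of 29 in TCC-SUP. Over all tested members with a tested parent, the parent was called lower for 29.6% in T24, 36.7% in 5637 and 16.1% in TCC-SUP. Of the members that rose, 9 of 40, 7 of 55 and 2 of 26 had a parent called higher, and 7, 13 and 3 had one called lower. Over all tested members the parent was called higher for 5.47, 5.24 and 5.00%. The difference between rises and falls was not tested. Among members at 1 CPM or more with a parent by symbol, the log2 fold changes of member and parent had a Pearson correlation of 0.57 for T24 (200 members), 0.47 for 5637 (178 members), 0.43 for TCC-SUP (193 members) and 0.59 for CLS-439 (981 members). These points share libraries and, for copies of 1 parent, the parent's value.

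**Figure D5:**
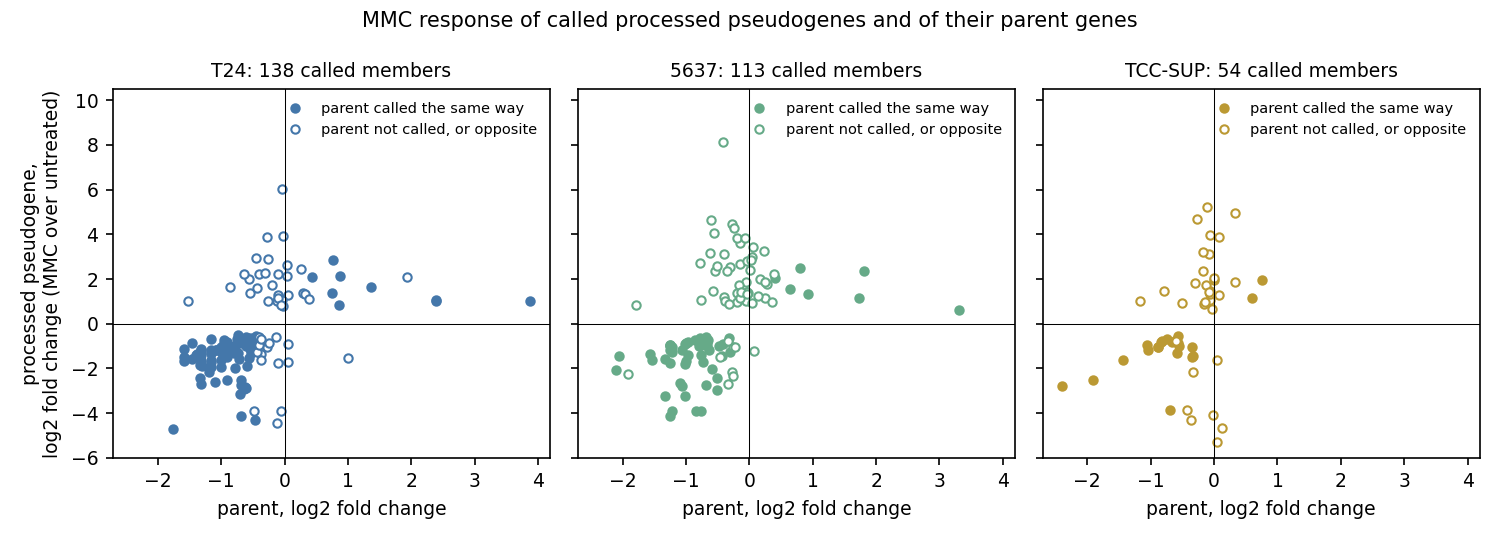
Log2 fold change after MMC of called members (vertical axis) against that of the parent gene (horizontal axis), for members whose parent was tested: 138 in T24, 113 in 5637 and 54 in TCC-SUP. Filled points have a parent called in the same direction. Members that fell lie mostly at negative parent values, and members that rose lie mostly near 0 on the parent axis.

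NPM1P27 went from 35.3, 32.2 and 37.2 CPM untreated to 16, 12.8 and 18.1 CPM after MMC in T24, and from 29.7, 28.0 and 26.2 to 17.8, 12.6 and 12.7 in 5637. In TCC-SUP it went from 18.2, 20.3 and 16.7 to 15.1, 11.9 and 10.7 CPM. In each line every treated library was below every untreated one. The log2 fold changes were -1.16 (SE 0.17), -0.96 (SE 0.17) and -0.55 (SE 0.17), close to the -1.15, -1.26 and -0.57 of NPM1 itself. The TCC-SUP call of NPM1P27 was lost (adjusted p over 0.05) when any of 4 libraries was left out. NPM1P6, with 95.5% identity, fell in the same 3 lines, by 1.32, 1.16 and 0.86 on the log2 scale, and its TCC-SUP call was lost without any 1 of 3 libraries or without the CLS-439 libraries. In CLS-439 NPM1P27 had 113 to 137 CPM untreated and 96.6 to 120 CPM treated, and was not called, nor was NPM1 (log2 fold change -0.19, SE 0.13, edgeR adjusted p = 0.848).

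CDC20P1 fell in T24, 5637 and CLS-439. It went from 29.8, 35.9 and 27.2 to 14.4, 8.73 and 11.8 CPM in T24, and from 7.88, 7.49 and 8.14 to 2.85, 2.18 and 4.25 in 5637. In CLS-439 the values were 53.3, 57.8 and 51.5 untreated and 23.8, 27.1 and 26.2 treated. Its log2 fold changes were -1.41 (SE 0.23), -1.35 (SE 0.25) and -1.08 (SE 0.22), beside -1.40, -1.57 and -1.23 for CDC20. The CLS-439 call (edgeR adjusted p = 0.0177) was lost when any 1 of the 6 CLS-439 libraries was left out. Transcripts of AL513318.2 overlap an exon of CDC20P1 on the opposite strand.

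ANXA2P2 fell in T24, 5637 and TCC-SUP by 1.05, 0.83 and 0.69 on the log2 scale (SE 0.19 each), beside falls of 0.85, 0.97 and 0.74 for ANXA2. Its TCC-SUP call was lost without untreated replicate 3 or treated replicate 4. HNRNPA1P7, a copy of a nuclear RNA-binding protein gene, fell by 1.44, 1.58 and 1.06 in the same lines, beside 1.33, 1.33 and 0.89 for HNRNPA1, and its TCC-SUP call was lost without treated replicate 3 or untreated replicate 4. EEF1A1P5 fell in T24 and 5637 by 0.64 and 0.71, beside 0.58 and 0.86 for EEF1A1. Further falls with the parent were LDHAP7 in T24 (by 1.64) and MPRIPP1 in 5637 (by 1.61), copies of lactate dehydrogenase A and of a myosin phosphatase partner, beside 1.00 and 1.54 for LDHA and MPRIP. The MPRIPP1 call was lost without treated replicate 3. AC108463.1, which lies in MIR4435-2HG on its strand and aligned to no protein-coding transcript, went from 2.05, 1.83 and 1.85 to 0.271, 0.0910 and 0.0997 CPM in T24, a log2 fold change of -3.62 (SE 0.49). AL136116.3, a copy of the rhomboid protease gene PARL, fell in T24, 5637 and TCC-SUP by 1.73, 2.34 and 2.15, while PARL changed by 0.05, -0.26 and -0.33 and was not called. Its TCC-SUP call was lost without treated replicate 3 or 4. ZNF204P had 1.63, 1.46 and 1.55 CPM in untreated T24 and 0.433, 0.591 and 0.549 after MMC, a fall of 1.54 (SE 0.33). ZNF420, the protein-coding gene it aligned to best (69.5% identity), rose by 1.01 in T24 (edgeR adjusted p = 0.00708).

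AP001372.4 was the 1 member that rose in CLS-439. It is a copy of MDM2, the ubiquitin ligase that limits p53, lies on chromosome 11 (74485580 to 74486051, minus strand) and matches MDM2 at 90.9% outside its coding sequence. Its values were 4.18, 4.67 and 4.28 CPM untreated and 14, 13.4 and 15.9 CPM treated, so the groups did not overlap. The log2 fold change was 1.72 (SE 0.29, edgeR adjusted p = 0.0042), beside 1.53 (SE 0.15) for MDM2, which went from 51.6 ± 3.28 to 150 ± 17.9 CPM (SD, n = 3). In the other lines AP001372.4 had at most 0.128 CPM in any library, and the MDM2 changes of 0.38, 0.32 and 0.28 did not pass the test (edgeR adjusted p = 0.0600, 0.118 and 0.21). No transcript of MDM2 or another gene shares a 50-base word with AP001372.4. An exon of AP001372.1 overlaps it on the opposite strand, and the strand setting of the counts is not given in the sources used here.

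Rises in the other lines were mostly of members near 1 CPM. TMPOP2, a copy of the lamina protein gene TMPO on chromosome 16, went from 0.508, 0.676 and 0.965 to 2.53, 7.51 and 5.26 CPM in 5637, a log2 fold change of 2.81 (SE 0.46). It rose by 2.21 (SE 0.49) in T24 and 1.42 (SE 0.45) in TCC-SUP, where the call was lost without any 1 of 4 libraries, and TMPO changed by -0.41, -0.04 and -0.08 in T24, 5637 and TCC-SUP. TOB2P1, a copy of the antiproliferative gene TOB2 on chromosome 6, rose by 2.13 (SE 0.30) in T24, 1.56 (SE 0.28) in 5637 and 1.15 (SE 0.26) in TCC-SUP, and here the parent rose too, by 0.88, 0.64 and 0.60. DFFBP1 rose by 1.03, 0.85 and 1.00 while DFFB, the caspase-activated nuclease, fell by 1.52, 1.78 and 1.17. DFFBP1 lies within NDUFB6 on the same strand, and its call was lost without any 1 of 5 libraries in 5637 and of 2 in TCC-SUP.

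AL133163.1, a copy of RPLP0 on chromosome 14 with no shared 50-base word, had 0, 0 and 0.0377 CPM in untreated T24 and 0.0541, 2.05 and 1.55 after MMC. In 5637 it had no read in untreated libraries and 0.140, 3.33 and 1.31 CPM after MMC. Replicate 1 was the low treated library in both lines. AL356234.1, a copy of the phosphatase gene PTPN11, rose by 3.87 (SE 0.70) in T24 and 2.37 (SE 0.50) in 5637, and KRT18P5 rose by 2.85 (SE 0.51) in 5637, where it overlaps an exon of KLHL22 on the same strand. IMPDH1P10 was called higher in T24 (2.01, SE 0.44) on values of 5.52, 1.23 and 1.80 CPM against 0.491 to 1.01. Its calls in 5637 and TCC-SUP (1.20 and 1.28) were lost without the CLS-439 libraries, and without any 1 of 4 libraries in 5637 and any 1 of 6 in TCC-SUP. RPL23P2 was called higher in T24 by edgeR (1.61, SE 0.57) and not by DESeq2, and the call was also lost without the CLS-439 libraries and without any 1 of 5 T24 libraries.

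In the same direction, 7 members rose in 3 lines and 10 fell in 3 (0.329 and 0.47% of members), beside 4.07 and 4.19% of all genes. In 1 line alone, 71 rose and 117 fell (3.34 and 5.5%), beside 13.9 and 13.1% of all genes. In 2 lines, 15 rose and 22 fell (0.705 and 1.03%), beside 7.32 and 6.14%. Members on the Y chromosome were left out of these counts. CLS-439 had 2 called members, and neither was called in all 4 lines, as were 0.0529 (higher) and 0.106% (lower) of all genes. Whether a response differed between lines was not tested for these members.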

How the data were processed

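Poly(A) RNA libraries of 24 cultures were deposited by the authors as 1 table of raw read counts per gene. STAR 2.5.3a, featureCounts 1.6.2 and the build GRCh38 are listed in the submitters' processing notes. The sources used here give no annotation release, strand setting or treatment of multi-mapping reads, and near-identical or overlapping genes have uncertain counts. GENCODE 29 gave types, coordinates and transcript sequences for 58216 of 58381 IDs, and the rest held 0.00717% of reads. Members and gene lists were chosen with earlier results of these data known.

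Counts were tested with edgeR 4.0.16 (R 4.3.3): filterByExpr by group (20820 genes), TMM, robust quasi-likelihood fit of 8 group means over 24 libraries, Benjamini-Hochberg adjustment over all genes. DESeq2 1.42.0, other scalings, no filter and left-out libraries were alternatives. The fit was tested on simulated data. Pseudogenes were aligned to protein-coding transcripts with blastn 2.17.0 (word size 16). Parents came from symbols, and from alignments as an alternative. Named members were, by rule: the 6 highest per line, the largest called MMC changes per line without overlap at 1 CPM or more, those called in most lines, the largest differences between untreated lines, and the extremes of the CLS-439 ratio at 10 CPM or more. PHBP11 and the copies of mitochondrial genes other than MTCYBP35 were named after their values were seen. Members on the Y chromosome were not named.

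Replicate numbers were checked as pairs through deviations from group means. Over genes at 1 CPM or more, all correlations were above 0.1 in 5637 (0.303, 0.161 and 0.464) and CLS-439 (0.494, 0.342 and 0.183), where they were taken as pairs, and not in T24 or TCC-SUP. This depends on the cut: over all 20820 genes, replicate 3 of 5637 (0.0739) and replicate 4 of CLS-439 (0.0807) were under 0.1. The main edgeR fit used no pairs, and calls with the replicate number as a block are given at the end. Replicates differed by more than sampling noise (lowest chi-square per gene 3.83).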

Additional observations from a re-analysis of the deposited data

Results flagged for a closer look

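PHBP11, a copy of the prohibitin gene PHB, was called in opposite directions in 2 lines, with no overlap between treated and untreated libraries in either. Its log2 fold change after MMC was 2.14 (SE 0.77) in T24 and -4.66 (SE 1.47) in TCC-SUP, edgeR adjusted p = 0.0399 and 0.0274. The difference between the lines was not tested. The levels were low: means of 0.0666 untreated and 0.323 CPM treated in T24, and of 0.142 and 0 CPM in TCC-SUP. Both calls thus rest on few reads. Its highest means were in CLS-439, at 2.86 untreated and 3.10 CPM treated, where it was not called. PHB itself changed by 0.03 and 0.12 and was not called.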

How the results depend on the processing

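Of the 2132 members tested, 1867 averaged under 1 CPM in 5637 and 1851 in TCC-SUP. With transcribed processed pseudogenes added, shares were 0.250, 0.189, 0.215 and 3.09% for T24, 5637, TCC-SUP and CLS-439. Without the member with the most reads they were 0.183, 0.139 and 0.151% in the first 3, and without members in exons of other genes 0.142% for 5637 and 2.73% for CLS-439. Leaving out 1 replicate number gave shares of 0.206 to 0.220, 0.151 to 0.165, 0.165 to 0.185 and 2.85 to 2.92%. Treated minus untreated shares then ranged from -0.0238 to 0.00343 percentage points for T24 and from -0.000542 to 0.00748 for TCC-SUP, reversing in both without replicate 3, from -0.0119 to -0.00399 for 5637 and from -0.187 to -0.0829 for CLS-439. The cause was not tested.

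Without the CLS-439 libraries, 668 members were tested, and calls after MMC numbered 57 lower for T24, 36 higher and 38 lower for 5637, and 16 and 13 for TCC-SUP. Untreated T24 was then higher than TCC-SUP in 138 members and 5637 in 81. Falls for CLS-439 numbered 3 with DESeq2, 2 with no filter and 0 in each fit without 1 library, with 1 rise in each. Leaving out 1 library gave 24 to 51 rises and 51 to 111 falls for T24, 32 to 74 and 32 to 93 for 5637, 10 to 37 and 12 to 39 for TCC-SUP, and 57 to 72 and 113 to 163 in the mean response. The lowest counts of falls for T24 came without treated replicate 3 (51) or untreated replicate 4 (60), and of rises without treated replicate 4 (24). Between untreated lines, the same gave 188 to 228 and 74 to 81 for T24 minus 5637, 142 to 196 and 104 to 122 for T24 minus TCC-SUP, and 87 to 126 and 159 to 206 for 5637 minus TCC-SUP.

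The copies' level against the parent was 0.704, 0.514, 0.641 and 22.0% per kilobase, and 0.0892% for 5637 with parents from alignments. Ribosomal protein copies held 47.5, 45.7, 44.2 and 44.1% of member reads by alignment. With the replicate number as a block, rises and falls were 41 and 113 for T24, 57 and 82 for 5637, 35 and 30 for TCC-SUP and 1 and 1 for CLS-439, and the block changed none of 56 calls of named members. Of these 56, 55 held with DESeq2, and 264 of 336 held when 1 library was left out.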
